A study of Mus musculus with 3 samples.

Results

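The 61 microRNAs (miRNAs) described here are the mouse miRNAs on the array whose names begin with miR-297, miR-466, miR-467 or miR-669, with any letter and either arm, out of 1881 mouse miRNAs in all. They comprised 3 of miR-297, 23 of miR-466, 12 of miR-467 and 23 of miR-669, and 26 were named as 3p arms, 25 as 5p arms and 10 without an arm. They were read by 162 of the array's 4415 miRNA probes and by 1830 of its 56430 miRNA spots. The samples were exosomes, small vesicles released by cells, pelleted by ultracentrifugation from the culture medium of bone marrow mesenchymal stem cells (MSCs) of male wild-type C57BL/6 mice aged 4 to 6 weeks. All cells were at passages 3 to 6 in medium with 10% fetal bovine serum, and each preparation used the medium of 10 dishes. The 3 groups were exosomes of MSCs kept for 24 h in normoxia (N-Exo), for 24 h in hypoxia (H-Exo), or for 24 h in hypoxia with GW4869, an inhibitor of neutral sphingomyelinase that is widely used to lower exosome release (H+G-Exo). The series title concerns the myocardial reparative functions of such exosomes after hypoxia.

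Each group was measured on 1 one-colour array, so no comparison between groups has a biological replicate and no test was possible. The series' design mentions 3 samples per kind of exosome, and whether RNA was pooled onto the array is not stated. Whether the serum was depleted of its own vesicles is not stated either. A lower signal cannot tell fewer vesicles with a miRNA from less of it per vesicle. All errors below are standard deviations (SD) or standard errors (SE) over the replicate spots of a probe on 1 array, and they cover technical error within the array only.

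Most loci of these miRNAs form a large tandem cluster inside an intron of Sfmbt2, a Polycomb gene that is imprinted and expressed from the paternal allele in the placenta. The cluster arose from repeats rich in alternating bases, so its hairpins and mature miRNAs are close copies of one another, with runs of alternating G and U on the 5p side and of alternating A and C on the 3p side. A miRNA pairs with target messenger RNAs mainly through its seed, the bases near its 5′ end. In RefSeq (GRCm38.p6), 81 loci were named Mir297, Mir466, Mir467 or Mir669. Of these, 71 lay within the Sfmbt2 gene span and 10 lay elsewhere. By name, 49 of the 61 members had all their loci within Sfmbt2, 8 had none there, 3 had both kinds and 1 (miR-466a-5p) had no match. The name rule is therefore wider than the Sfmbt2 intron, and miR-466i-3p, miR-466i-5p, miR-466q, miR-467f and miR-669n, all detected below, belong to the 8 outside it.

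A RefSeq mature sequence was given for 7 of the 61 members. The 7 sequences had 7 different seeds. The 4 that were detected are shown because they carry the repeat in different registers, with the seed (bases 2 to 8) in capitals and GRCm38.p6 positions in the sentences that follow.
miR-466i-3p: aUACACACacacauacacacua
miR-466q: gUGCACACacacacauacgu
miR-467f: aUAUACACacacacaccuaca
miR-669n: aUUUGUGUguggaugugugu
RefSeq places them outside Sfmbt2, miR-466i-3p at chr13:17747552-17747573 (plus strand), miR-466q at chr3:28419988-28420007 (plus strand), miR-467f at chr11:69635419-69635439 (minus strand) and miR-669n at chr3:115979905-115979924 (plus strand).

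The DNA probes on the array are complementary to the 3′ part of a miRNA, and the members' probes were 13 to 23 bases long. For the members on which the results turn, the brightest probe is shown 5′ to 3′, with its longest run of alternating G and T, or C and A, in capitals.
miR-466i-5p: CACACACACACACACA
miR-466f-3p: gtgtgtaTGTGTGTGTG
miR-466h-3p: GTGTGTGTGTGcgt
miR-466b-3p: tcttaTGTGTGcgtgta
miR-467f: tgtagGTGTGTGTGTGT
miR-467a-3p: tgtagGTGTGTGTatgtata
miR-467c-3p: gtatagGTGTGTGTatgtata
miR-467d-3p: gtgtagGTGTGTGTatg
miR-467a-5p: cgcatatACAtgcaggca
miR-467b-5p: catatACAtgcaggcact
miR-467e-5p: acatatacatgctCACACt
miR-669p-3p: atacGTGTGTGTGTGTatg
miR-669f-3p: atacGTGTGTGTGTatgt
miR-669d-3p: gtatatggGTGTGTatgt
miR-669n: acacacatcCACACACAa
The probe of miR-466i-5p is alternating C and A from end to end. The probes of miR-467f, miR-467a-3p, miR-467c-3p and miR-467d-3p share the block around taggtgtgtgt and differ in what flanks it.

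Near-identical probes limited what could be assigned to a single name. Of the 1830 pairs of members, 240 had probes that shared a run of 10 or more bases, and 22 shared 15 or more. No pair had an identical probe, and 4 pairs had 1 probe within the other: miR-466f-3p with miR-466i-3p, miR-466a-5p with miR-466p-5p, miR-466d-5p with miR-466n-5p, and miR-466f-5p with miR-669b-5p. Among the 25 members detected on at least 1 array, 73 pairs shared 10 or more bases, and 20 of the 25 were in such a pair. The longest runs shared by detected members were 18 bases for miR-467a-3p and miR-467c-3p, 17 for miR-466f-3p and miR-466i-3p, and 16 both for miR-467a-3p with miR-467d-3p and for miR-467a-5p with miR-467b-5p. Some probes also carried other names in the array's own annotation. The probe of miR-466b-3p listed miR-466a-3p, that of miR-669f-3p listed miR-669a-3p and miR-669o-3p, that of miR-669d-3p listed miR-669d-2-3p, that of miR-669n listed miR-669c-5p, and that of miR-669b-5p listed miR-297a-5p and miR-466f. The values below are the signals of these probes, and the shares of the miRNAs that could bind them were not measured.

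Signals are the mean over a probe's spots of the background-subtracted intensity, divided by the 75th percentile of the probes detected on all 3 arrays, so that 1 is that percentile. A probe was called detected when the scanner software marked over 50% of its kept spots as well above background, and a miRNA when at least 1 of its probes was. The divisor was 417 for N-Exo, 235 for H-Exo and 469 for H+G-Exo, so the H-Exo array was the dimmest before scaling. For detected probes of members, the median coefficient of variation over spots was 7.96% to 8.6%, against 13.4% to 14% for all detected probes. The markers fixed for MSCs were detected for 8, 7 and 8 of 8 on N-Exo, H-Exo and H+G-Exo, with miR-145a-5p undetected on H-Exo, and their summed scaled signal was 287, 125 and 49.9. Of 6 blood cell markers 2 were detected on each array (miR-451a and miR-223-3p), with summed signals of 0.249, 0.314 and 0.117. No marker of endothelium (2) or epithelium (3) was detected, and 1 of 7 markers of embryonic stem cells was (miR-290a-3p, on each array).

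Of the 61 members, 25 were detected on N-Exo (41%), 20 on H-Exo (32.8%) and 17 on H+G-Exo (27.9%). For all 1881 miRNAs the shares were 36.7%, 31.3% and 36.1%. Members on H-Exo were a subset of those on N-Exo, and those on H+G-Exo a subset of those on H-Exo. The 17 members detected on all 3 arrays were miR-466f-3p, miR-466g, miR-466h-3p, miR-466i-3p, miR-466i-5p, miR-466m-3p, miR-466q, miR-467a-3p, miR-467b-3p, miR-467c-3p, miR-467f, miR-669c-3p, miR-669d-3p, miR-669f-3p, miR-669i, miR-669n and miR-669p-3p. Another 3 (miR-466b-3p, miR-467b-5p and miR-467d-3p) were detected on N-Exo and H-Exo, and 5 (miR-467a-5p, miR-467c-5p, miR-467e-5p, miR-669b-5p and miR-669e-3p) on N-Exo alone. The remaining 36 were detected on none. Over all 1881 miRNAs, 566 were detected on all 3 arrays, 67 on 2, 126 on 1 and 1122 on none. Among the 36 undetected members the highest scaled signal was 0.0478 on N-Exo (miR-466o-3p), 0.0578 on H-Exo and 0.0375 on H+G-Exo (both miR-669h-3p). Their medians lay within 0.00397 of 0.

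The subfamilies and arms differed in detection. None of the 3 members that the array names miR-297 was detected, although the probe of miR-669b-5p, detected on N-Exo, also lists miR-297a-5p. For miR-466 the counts on N-Exo, H-Exo and H+G-Exo were 8, 8 and 7 of 23, for miR-467 they were 9, 6 and 4 of 12, and for miR-669 they were 8, 6 and 6 of 23. Of the 26 members named 3p, 14, 13 and 11 were detected, and of the 25 named 5p, 6, 2 and 1 were. The 5p arms of miR-467 gave most of the 5p detections, with 4, 1 and 0 of 5. The only member named as a 5p arm that was detected on H+G-Exo was miR-466i-5p, and the probe of miR-669n, detected there too, also lists miR-669c-5p. Of the undetected members, miR-466l-3p and miR-466l-5p belong to a miRNA studied as a regulator of interleukin 10 messenger RNA, miR-466h-5p to one studied in apoptosis of cultured cells, and miR-669a-5p to one studied in the myogenic fate of cardiac progenitors. The probes of these 4 members stayed below detection on all 3 arrays. Other arms may still be read: miR-466h-3p was detected on all 3 arrays, as was the probe of miR-669f-3p, which also lists miR-669a-3p.

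**Figure D1:**
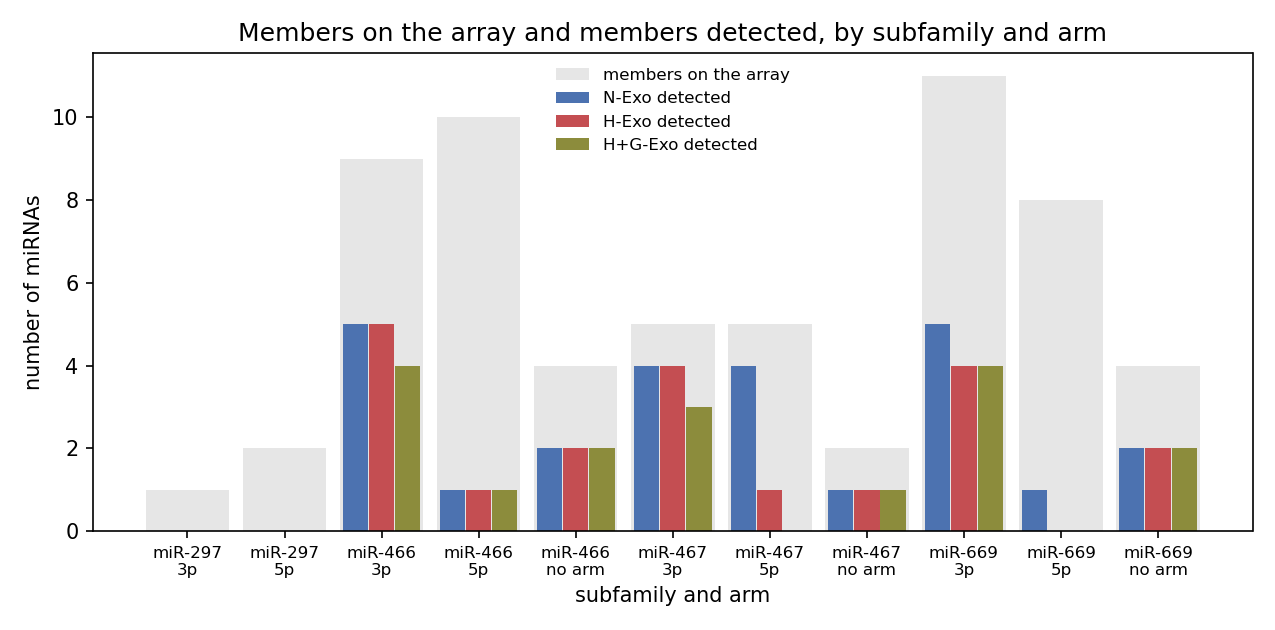
Number of members on the array (grey) and number detected in N-Exo, H-Exo and H+G-Exo (coloured bars), by subfamily and arm. The 5p arms of miR-467 went from 4 of 5 on N-Exo to 1 on H-Exo and 0 on H+G-Exo, and no member named miR-297 by the array was detected.

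Detection was also counted by repeat content. A mature sequence, or where RefSeq gave none the complement of a probe, was searched on its own strand for UGUGUGUG and ACACACAC. ACACACAC was found in 16 of the 1881 miRNAs (0.851%). All 16 were members, 13 of them detected on at least 1 array, against 759 of all 1881 miRNAs. UGUGUGUG was found in 12 miRNAs (0.638%), 7 of them members, of which 2 were detected (miR-466i-5p and miR-669n). For the 54 members without a RefSeq mature sequence, only the 3′ part that a probe covers was searched. A repeat nearer the 5′ end would be missed there, so the member counts for both motifs are minimum counts. The 5 miRNAs with UGUGUGUG that are no members were all read from mature sequences, so their count is not on the same measure. By probe, 13 members had an alternating run of 9 or more bases. Of these, 9 were detected, each on all 3 arrays. The other 48 had a run of 8 or less, and 16, 11 and 8 of them were detected on N-Exo, H-Exo and H+G-Exo.

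The marker miR-466i-5p had a scaled signal of 0.968 ± 0.0335 (SD, 15 spots) on N-Exo, 2.37 ± 0.0735 (14 spots) on H-Exo and 2.19 ± 0.0750 (15 spots) on H+G-Exo. After scaling it was low on N-Exo and high on both hypoxic arrays, with gaps from N-Exo many times the SD over spots. Before scaling, the signals were 404, 558 and 1026. The marker miR-467a-3p, of a miRNA studied as an inhibitor of thrombospondin 1, went the other way, with 0.636 ± 0.0290 on N-Exo, 0.221 ± 0.0310 on H-Exo and 0.0726 ± 0.0148 on H+G-Exo (7 spots each). It was lower at each step, also before scaling, with 265, 52.0 and 34.0. The marker miR-467b-5p, whose other arm is studied for its targeting of lipoprotein lipase, had 0.314 ± 0.0208 on N-Exo and 0.115 ± 0.0127 on H-Exo, and 0.0321 ± 0.00427 on H+G-Exo, where it was not well above background. The marker miR-669d-3p had 0.164 ± 0.00883 on N-Exo, 0.242 ± 0.00936 on H-Exo and 0.0675 ± 0.0104 on H+G-Exo (5 to 7 spots). It was highest on H-Exo after scaling, while its unscaled signals of 68.5, 56.9 and 31.7 were highest on N-Exo.

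**Figure D2:**
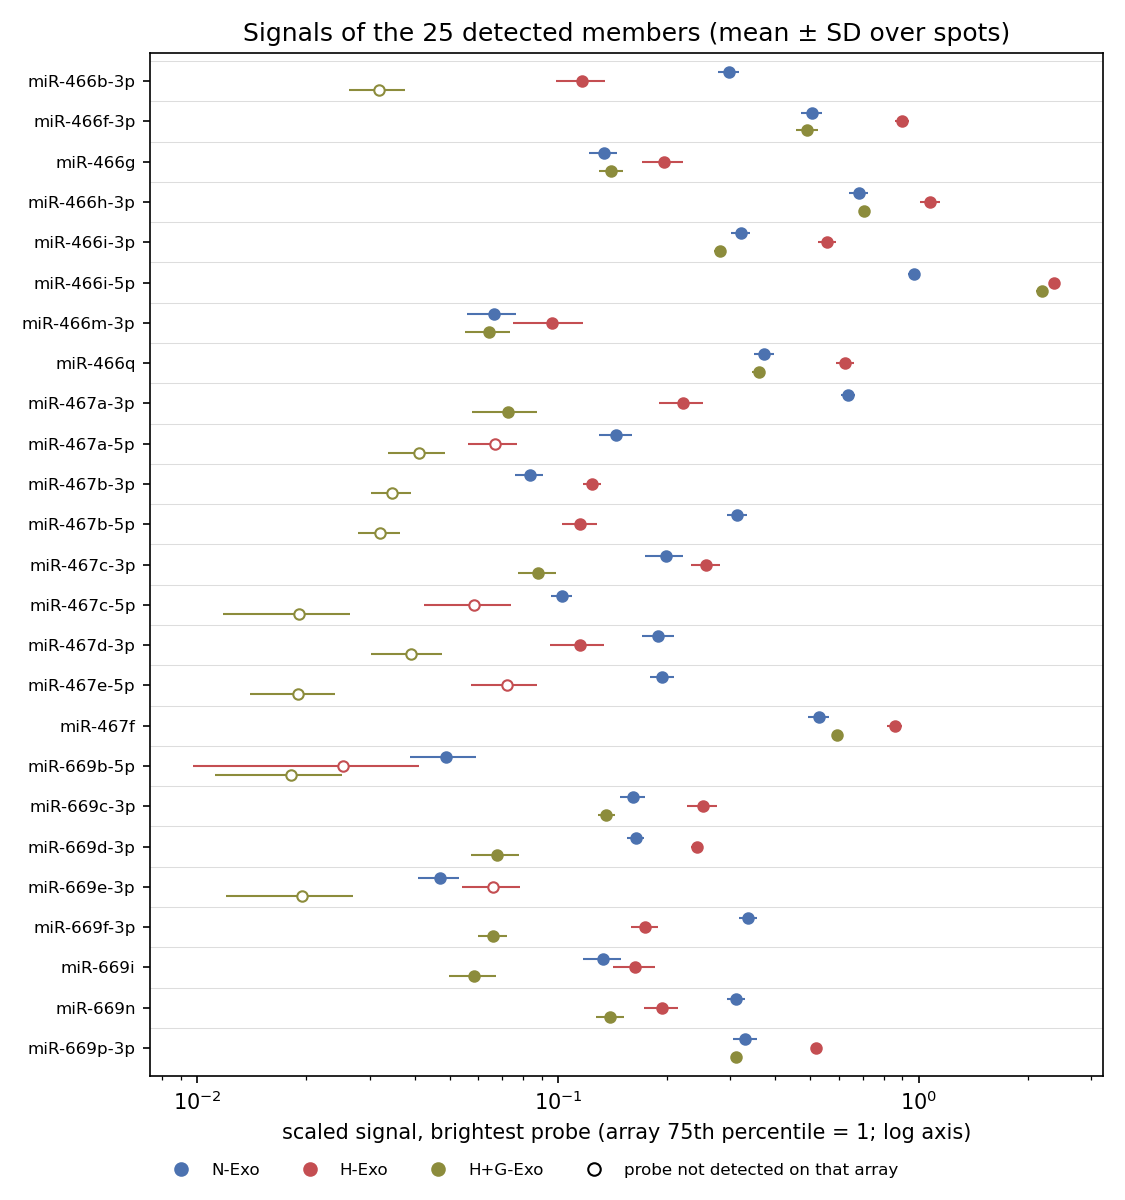
Scaled signal of the brightest probe of each of the 25 detected members on the 3 arrays (log axis; mean, with bars of 1 SD over spots; open circles, probe not detected on that array). Values are to be compared along a row only, since probes differ in how they bind: miR-466i-5p went from 0.968 on N-Exo to 2.37 and 2.19, and miR-467a-3p from 0.636 to 0.221 and 0.0726.

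Hypoxic against normoxic exosomes (H-Exo against N-Exo) asked what hypoxia changed. Of the 20 members measured on both arrays, 1 was counted higher and 3 were counted lower, where a count needed a difference of at least 2-fold and of more than 2 SE over spots. Over all 582 miRNAs measured on both, 4.3% were higher and 10.7% lower, so 1 and 3 of 20 are near those shares. Without scaling 0 and 6 of the 20 were counted, against 0.172% and 23.2% of all. The member counted higher was miR-466i-5p, at 2.45-fold (log2 difference 1.29, SE 0.02). The members counted lower were miR-467a-3p at 2.87-fold (log2 -1.52, SE 0.08), miR-467b-5p at 2.72-fold (log2 -1.45, SE 0.05) and miR-466b-3p at 2.55-fold (log2 -1.35, SE 0.06). miR-466b-3p had 0.298 ± 0.0200 on N-Exo and 0.117 ± 0.0183 on H-Exo. The 3 lower calls held under each of the 5 other scalings, at 2.71-fold to 5.42-fold, while miR-466i-5p kept its direction in all 5 and its call in 2, with 1.3-fold to 2.44-fold. Under normexp background correction with an offset of 50, which shrinks the differences of dim probes, none of the 3 was counted lower, with log2 differences of -0.34 for miR-466b-3p, -0.39 for miR-467b-5p and -0.80 for miR-467a-3p, while miR-466i-5p stayed higher at 1.08.

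The median log2 difference of the 20 members was 0.56, and that of all miRNAs was 0.35. Both medians rest on the scaling: without any, they were -0.27 and -0.48, and scaled to the hybridization spike-in they were -0.36 and -0.57. The gap between members and all miRNAs was 0.21, which no scaling by a single factor can move, and 0.15 under quantile normalization. Relative to the median of all miRNAs, 13 of the 20 members were above and 7 below. A scaling by a single factor cannot change this count, and under quantile normalization it was also 13 and 7. By that measure miR-466i-5p was 0.94 above (log2), miR-466f-3p 0.48 above and miR-466i-3p 0.45 above. On the other side miR-467a-3p was 1.87 below, miR-467b-5p 1.80, miR-466b-3p 1.70, miR-669f-3p 1.30, miR-467d-3p 1.08 and miR-669n 1.03 below. The seventh, miR-669i, was 0.05 below.

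Another 5 members were detected on N-Exo only, so the hypoxic level gives a bound. For a bound, the normoxic signal was divided by the probe's own signal on the dim array, or by the lowest signal of any detected probe there if that was higher. Where the own signal was the divisor, the value is a plain ratio with the error of that dim signal, and no strict minimum. By such a ratio miR-467e-5p was 2.69-fold lower on H-Exo (0.194 ± 0.0149 on N-Exo, 0.0722 ± 0.0150 on H-Exo). By the same kind of ratio miR-467a-5p was 2.17-fold lower, with 0.145 ± 0.0150 on N-Exo and 0.0667 ± 0.0104 on H-Exo. miR-467c-5p was at least 1.57-fold lower, with 0.102 ± 0.00681 and 0.0583 ± 0.0159. For miR-669b-5p and miR-669e-3p the bound was under 1 and gives no fold. Without scaling these ratios and bounds were 4.77-fold, 3.86-fold and 2.79-fold, and 1.33-fold and 1.26-fold for miR-669b-5p and miR-669e-3p. With miR-467b-5p, all 4 detected 5p arms of miR-467 were lower on H-Exo than on N-Exo. For miR-467a-5p, miR-467c-5p and miR-467e-5p, detected on N-Exo alone, the detection rule itself favoured this direction. The other 5p arm, miR-467d-5p, was detected on no array. In addition, miR-467a-5p and miR-467b-5p share 16 probe bases and are not independent readings.

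A different shape, highest on H-Exo after scaling, was shared by 9 members whose differences stayed within the 2-fold rule. In all, 13 of the 16 members measured on all 3 arrays were highest on H-Exo. Most miRNAs of the array moved in these directions too. Of all miRNAs measured, 429 of 582 lay above 0 on H-Exo against N-Exo, and 381 of 566 lay below 0 on H+G-Exo against H-Exo. How many did both was not counted, so the shape was not shown to be particular to the members. miR-466h-3p had 0.680 ± 0.0406 on N-Exo, 1.08 ± 0.0704 on H-Exo and 0.702 ± 0.0217 on H+G-Exo. miR-466f-3p had 0.506 ± 0.0338, 0.899 ± 0.0404 and 0.490 ± 0.0334, and miR-467f had 0.528 ± 0.0368, 0.856 ± 0.0415 and 0.594 ± 0.0161. The same shape, high on H-Exo and near the normoxic level on H+G-Exo, was seen for miR-466i-3p (0.320, 0.556 and 0.280), miR-466q (0.373, 0.625 and 0.360), miR-669p-3p (0.330, 0.517 and 0.312) and miR-669c-3p (0.161, 0.252 and 0.136). It was also seen, at lower signal of each probe, for miR-466g (0.134, 0.197 and 0.140) and miR-466m-3p (0.0663, 0.0960 and 0.0643). Before scaling H-Exo was not the highest of the 3 arrays for any of the 3 members that follow. miR-466f-3p then had 211, 211 and 230, miR-466i-3p 134, 131 and 131, and miR-669p-3p 138, 122 and 146. Others were lowest on H-Exo and highest on H+G-Exo before scaling, with 220, 201 and 278 for miR-467f, 55.9, 46.2 and 65.8 for miR-466g, and 284, 252 and 329 for miR-466h-3p. The divisor of the H-Exo array was the smallest of the 3.

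H+G-Exo against H-Exo asked what GW4869 changed in hypoxia. Of the 16 members measured on both, none was counted higher and 5 were counted lower. Over all 566 miRNAs measured on both, 6.18% were higher and 26.7% lower, and without scaling 32.7% and 1.24%. The members counted lower were miR-669d-3p at 3.59-fold (log2 -1.84, SE 0.09), miR-467a-3p at 3.05-fold (log2 -1.61, SE 0.14), miR-467c-3p at 2.93-fold (log2 -1.55, SE 0.08), miR-669i at 2.80-fold (log2 -1.49, SE 0.08) and miR-669f-3p at 2.63-fold (log2 -1.40, SE 0.05). miR-467c-3p had 0.198 ± 0.0240 on N-Exo, 0.258 ± 0.0241 on H-Exo and 0.0879 ± 0.0107 on H+G-Exo. miR-669i had 0.133 ± 0.0163, 0.164 ± 0.0218 and 0.0584 ± 0.00862. All 5 kept their direction under the 5 other scalings, and 2 or 3 of the 5 scalings kept each call. Without scaling they were 1.32-fold to 1.80-fold lower, and none was then counted. Under normexp 3 were counted, with miR-669f-3p at -0.94 and miR-669i at -0.95 (log2) short of the rule.

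After scaling all 16 members lay below 0 in that comparison (11 lay above 0 without scaling), with a median of -0.84 against -0.43 for all miRNAs. Without scaling the medians were 0.16 and 0.57. Under both, 15 of 16 lay below the median of all miRNAs, the exception being miR-466i-5p at 0.31 above (log2), and under quantile normalization 13 of 16 did. miR-669d-3p was 1.42 below that median, miR-467a-3p 1.18, miR-467c-3p 1.13, miR-669i 1.06 and miR-669f-3p 0.97 below. A further 3 members were detected on H-Exo and not on H+G-Exo. miR-466b-3p and miR-467b-5p were at least 3.10-fold and 3.06-fold lower. By the ratio to its own signal, miR-467d-3p was 2.94-fold lower. Without scaling these values were 1.55-fold, 1.53-fold and 1.47-fold, all under 2-fold. The probes of miR-467b-3p did not agree on detection. Its brightest probe went from 0.124 on H-Exo to 0.0347 on H+G-Exo and was not detected there, and only the longest of its 4 probes was, so it entered neither count.

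H+G-Exo against N-Exo shares its arrays with the other 2 comparisons and follows from them. Of 16 members measured on both, 1 was higher and 6 were lower, against 19.3% higher and 26.7% lower of all 606 miRNAs measured. miR-466i-5p was 2.26-fold higher (log2 1.18, SE 0.02). The members counted lower were miR-467a-3p at 8.77-fold (log2 -3.13, SE 0.11), miR-669f-3p at 5.08-fold (log2 -2.35, SE 0.04), miR-669d-3p at 2.43-fold, miR-669i at 2.28-fold, miR-467c-3p at 2.26-fold and miR-669n at 2.24-fold. Under all 5 other scalings miR-467a-3p, miR-669f-3p and miR-669d-3p kept the call. Those of miR-467c-3p, miR-669i and miR-669n were kept in 4, 4 and 2, and miR-466i-5p kept its call in 4, falling just short of the rule under the hybridization spike-in. Bounds were largest for miR-467b-5p, at least 8.34-fold lower, miR-466b-3p, at least 7.92-fold lower, and miR-467e-5p, at least 5.16-fold lower. That of miR-467c-5p was at least 2.72-fold, and those of miR-669b-5p and miR-669e-3p at least 1.3-fold and 1.25-fold. By ratios to their own signals on H+G-Exo, miR-467d-3p and miR-467a-5p were 4.86-fold and 3.52-fold lower. Under normexp 2 members were counted lower in place of 6, miR-467a-3p at -1.83 and miR-669f-3p at -1.20 (log2). The median of the 16 members was -0.14 and that of all miRNAs -0.10, with 8 members above the latter and 8 below.

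**Figure D3:**
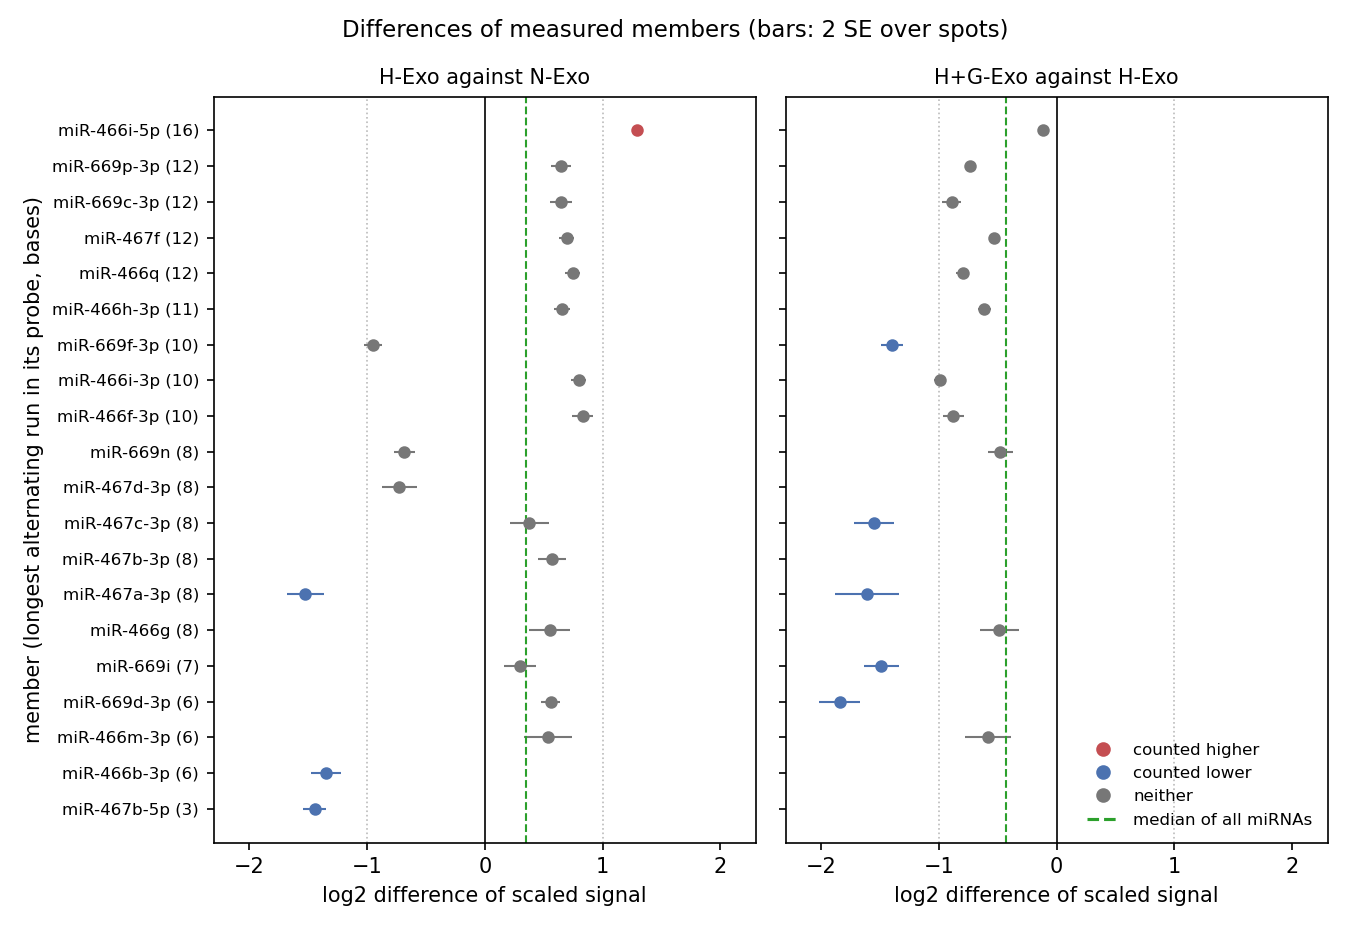
Log2 difference in scaled signal of each member measured on both arrays, for H-Exo against N-Exo (left) and H+G-Exo against H-Exo (right), with bars of 2 SE over spots, sorted by the longest alternating run in the probe (number in brackets). On the left miR-466i-5p lies at 1.29 and miR-467a-3p at -1.52 around a median of all miRNAs of 0.35 (dashed), and on the right all 16 members lie below 0 after this scaling, while 11 lay above 0 without scaling.

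Members with closely similar probes did not always move alike. miR-669f-3p and miR-669p-3p have probes that share the 14 bases atacgtgtgtgtgt. The first went from 0.336 ± 0.0190 on N-Exo to 0.174 ± 0.0151 on H-Exo and 0.0661 ± 0.00603 on H+G-Exo, while the second went from 0.330 ± 0.0245 to 0.517 ± 0.0132 and 0.312 ± 0.00960. Since probes differ in how they bind, only the changes within each probe are set side by side. From N-Exo to H-Exo both changes were many times the SD over spots, and after scaling they went in opposite directions. Unscaled, miR-669p-3p was slightly lower on H-Exo (122 against 138) and miR-669f-3p far lower (40.9 against 140). miR-467a-3p and miR-467c-3p share 18 bases, and against N-Exo the first was 2.87-fold lower on H-Exo while the second had a log2 difference of 0.38, which turned to -0.45 without scaling. The gap between them is the same under any scaling by a single factor. miR-467a-3p and miR-467d-3p, which share 16 bases, were both lower, by 2.87-fold and 1.65-fold. miR-466f-3p and miR-466i-3p, of which 1 probe lies within the other, had log2 differences of 0.83 and 0.80 on H-Exo against N-Exo.

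By locus, the 14 measured members whose loci are all within Sfmbt2 had a median log2 difference of 0.46 on H-Exo against N-Exo, with 0 higher and 3 lower. The 5 outside had 0.75, with 1 higher and 0 lower. On H+G-Exo against H-Exo the medians were -1.14 for 10 members within, with 5 lower, and -0.53 for 5 outside, with 0 lower. Over all miRNAs measured, 4.3% were higher and 10.7% lower on H-Exo against N-Exo, and 6.18% and 26.7% on H+G-Exo against H-Exo. Without scaling the medians within and outside were -0.37 and -0.08 on H-Exo against N-Exo and -0.15 and 0.47 on H+G-Exo against H-Exo, and none of the 5 was then counted lower. Locus and repeat run overlapped in part. Of the 9 measured members with a run of 9 or more, 4 lay within Sfmbt2, 4 outside and 1 had both kinds of locus, and of the 11 with a shorter run on H-Exo and N-Exo, 10 lay within and 1 outside. Among the 11 members measured on H-Exo and N-Exo with a run of 8 or less, 3 were counted lower, and among the 9 with a run of 9 or more none was lower and 1 was higher. The shares of all miRNAs in that comparison were 4.3% higher and 10.7% lower. Differences between these small sets were not tested. The array files placed the first match of 31 members' probes on chromosome 2 (mm9), of 1 (miR-466i-3p) on chromosome 13, and gave no match for 29. Split by that match, the 11 measured members on chromosome 2 had a median of -0.68 on H-Exo against N-Exo, with 5 above 0 and 6 below, and the 9 others had 0.70, with all 9 above 0. Without scaling these medians were -1.51 and -0.13. On H+G-Exo against H-Exo they were -1.40 for 7 members and -0.61 for 9, and without scaling -0.40 and 0.38. The match of the miR-467a-3p probe lay at chr2:10398019-10398038, that of miR-467b-5p at chr2:10402887-10402903 and that of miR-669d-3p at chr2:10390053-10390070. The files list 10, 1 and 2 matches for these probes. The miR-669n probe matched chr2:10430951-10430967 in mm9, although RefSeq places the miRNA of that name on chromosome 3.

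Across the 20 members measured on both arrays, the log2 difference of H-Exo against N-Exo went with the length of the alternating run in the probe (Spearman's rho 0.715) and less with its GC content (0.458). Across the 562 other miRNAs rho was -0.20 for the run and 0.473 for GC. Only 3 of the 562 had a run of 9 or more, so their rho says little about long runs. After scaling all 3 lay above 0, with a median of 1.14 against 0.34 for the other 559. For H+G-Exo against H-Exo the order changed, with rho of 0.411 for the run and 0.823 for GC across 16 members, and -0.203 and 0.404 across 550 others. The 5 members counted lower there had probes of 33.3% to 38.9% GC, and the 11 others 38.9% to 57.1%. These points share 3 arrays and probe bases and are no independent replicates, so the values are descriptive. The MSC marker list fell from 287 to 125 and 49.9 over the same arrays. The part of probe composition, of array brightness and of MSC content in the members' differences was not tested.

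The rule for likeness asked which members had both log2 differences within 0.3 of those of miR-466i-5p, and none of the other 15 measured on all 3 arrays did. Among miRNAs that are no members, 5 hold UGUGUGUG and 3 of them were detected. Their probes share 9 to 11 bases with the alternating probe of miR-466i-5p. miR-3082-5p had 0.454 ± 0.0322 on N-Exo, 1.08 ± 0.0564 on H-Exo and 1.20 ± 0.0526 on H+G-Exo, and was counted higher than N-Exo in both, at 2.37-fold and 2.64-fold. miR-1187 had 0.113 ± 0.00844, 0.250 ± 0.0227 and 0.207 ± 0.00828, and was 2.21-fold higher on H-Exo. miR-574-5p had 0.695 ± 0.0172, 0.981 ± 0.0247 and 0.842 ± 0.0367, 1.41-fold higher on H-Exo and short of the rule, while its unscaled signals of 290, 231 and 395 were lowest on H-Exo. After scaling, miR-3082-5p and miR-1187 thus shared with miR-466i-5p a signal that was low on N-Exo and high on H-Exo and H+G-Exo. Among detected miRNAs in which UGUGUGUG was found, miR-669n went the other way, with 0.312 ± 0.0171, 0.194 ± 0.0208 and 0.139 ± 0.0125. Its probe shares 8 bases with that of miR-466i-5p. Over all measured miRNAs, 4.3% were counted higher on H-Exo than on N-Exo, and 19.3% higher on H+G-Exo than on N-Exo. How many miRNAs without the repeat had this shape was not counted. Before scaling, miR-3082-5p had 189, 253 and 561, and miR-1187 had 47.3, 58.8 and 97.0, so like miR-466i-5p they were highest on H+G-Exo.

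Where a member had 2 or more probes detected on both arrays, its probes moved the same way in 15 of 15 members for H-Exo against N-Exo and in 13 of 13 for H+G-Exo against H-Exo. For H+G-Exo against N-Exo they did in 11 of 13, the exceptions being miR-466h-3p and miR-467f, whose differences there were 0.05 and 0.17 (log2). The totals per miRNA that the scanner software listed did not always match a member's own probes. On N-Exo, 9 of the 32 members it called detected had a listed total that exceeded the sum of their own probes by exactly the listed total of another miRNA, to within 0.01. On H-Exo this was so for 7 of 25 and on H+G-Exo for 5 of 22. miR-466m-3p on N-Exo was listed at 209, of which its own probes gave 7.73 and the rest of 201 was the total of miR-466i-5p. miR-297a-3p was listed at 284, of which 1.93 was its own and 282 was that of miR-296-5p, a miRNA of another family. The listed total of miR-297a-3p was thus almost all that of the other miRNA.

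**Figure D4:**
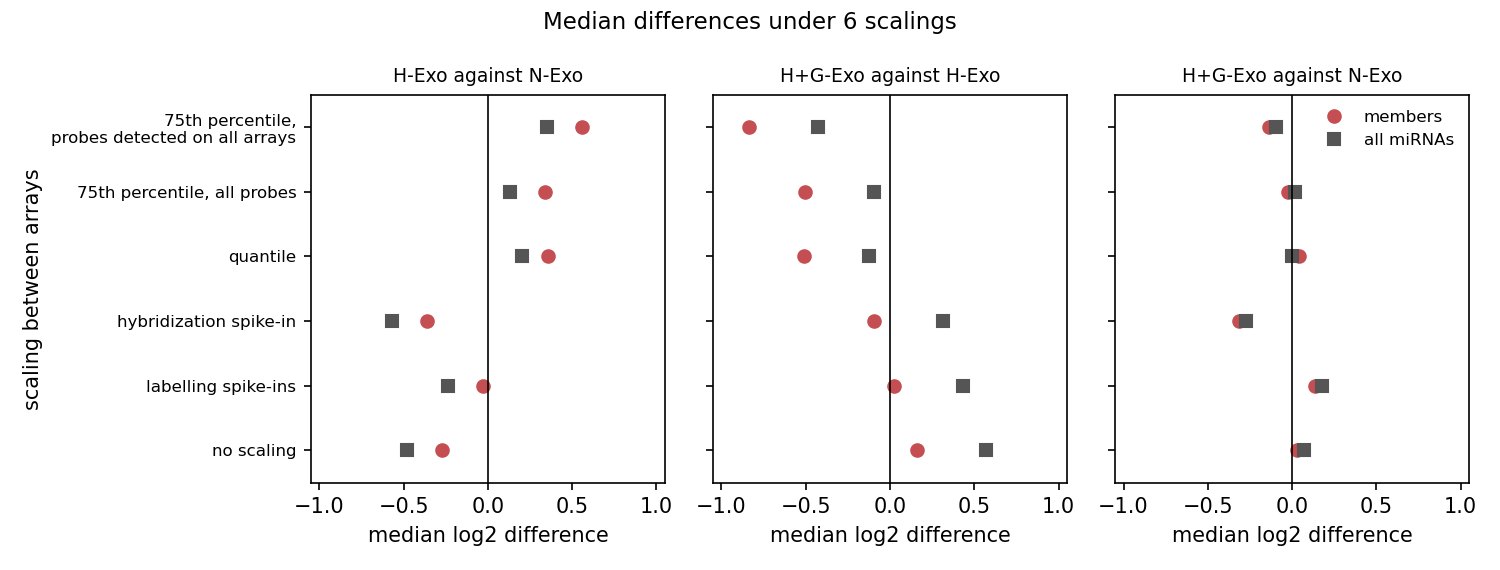
Median log2 difference of members (circles) and of all miRNAs measured on both arrays (squares) in the 3 comparisons under 6 scalings of the arrays. The members' median for H-Exo against N-Exo ran from 0.56 to -0.36 with the scaling, while its distance above the median of all miRNAs was 0.21, which is fixed by construction under all of these except quantile normalization (0.15).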

How the data were processed

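One-colour arrays were scanned and quantified by the authors with Agilent Feature Extraction 10.7.1.1, per the file headers and the submitters' processing notes. The headers list 1 slide and 1 scan time. The deposited intensity of a spot is background-subtracted and detrended within the array. The label protocol names an RNA amplification kit, and no miRNA labelling step is described. The deposited series table holds log2 values, and how they were normalized is not stated. Its columns had medians of -3.32, -3.00 and -3.30 (N-Exo, H-Exo, H+G-Exo), at the floor of undetected miRNAs, and its ranks matched the sums of each miRNA's own probe totals (rho 1.000 on each array) and not the listed totals (0.701 to 0.730).

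From the deposited intensities, outlier spots (1369 to 1568 of 56430 per array) were dropped, none being saturated. Probe means were scaled as described, and a miRNA took its brightest probe over the 3 arrays. A difference was called at 2-fold and more than 2 SE over spots. The brightest probe had to be detected on both arrays. The call rule was tested on simulated data for an array against the N-Exo array (1390 probes). It called 50 of 50 probes raised 3-fold and 0 of 1190 unchanged ones. Both simulated arrays were drawn from the N-Exo probe means with spot error only. The simulation held no error between arrays or from scaling, so these counts do not give the rule's error between the real arrays. Depth does not apply to arrays, whose number (1 per group) limits the precision. The members, the lists and the rule for named miRNAs (the 4 markers, the brightest per array, subfamily and arm, every member called higher or lower, the largest bounds, members detected on 3 arrays or on 1, those with contained probes, and detected UGUGUGUG miRNAs) were chosen with earlier results of these data known. The splits by RefSeq locus and by repeat run (the split planned first was by probe match), ACACACAC and the reference to the median of all miRNAs were chosen after seeing the data. Alternatives were 5 scalings (spike-ins as the geometric mean of each one's probe medians), normexp with an offset of 50, other summaries per miRNA, a 1.5-fold rule and other detection rules. Python 3.11.15, pandas 2.3.3, scipy 1.17.1, R 4.3.3 and limma 3.58.1 (normexp) were used.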

Additional observations from a re-analysis of the deposited data

How the results depend on the processing

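With 1 array per group, the scaling limits these results most. The members' median for H-Exo against N-Exo (0.56) was 0.34 with the percentile over all probes, 0.36 by quantile normalization, -0.36 by the hybridization spike-in, -0.027 by the labelling spike-ins and -0.27 unscaled. It was 0.47 with the mean over detected probes, 0.18 from the listed totals, 0.37 from sums of own probes (added after seeing the data), 0.25 from the deposited table and 0.60 over members detected on all 3 arrays. For H+G-Exo against H-Exo (-0.84) the same alternatives, in that order up to the deposited table, gave -0.50, -0.51, -0.095, 0.025, 0.16, -0.89, -0.59, -0.74 and -0.65, and normexp gave -0.71. For H+G-Exo against N-Exo (-0.14) they gave -0.027, 0.039, -0.32, 0.14, 0.029, -0.23, -0.61, -0.57 and -0.61. For H-Exo against N-Exo, members counted higher (1) numbered 0 by either kind of spike-in and unscaled, 3 from the listed totals or the deposited table and 8 at 1.5-fold. Those lower (3) numbered 6 by either spike-in, unscaled, from the deposited table or at 1.5-fold, 0 with normexp, 5 from own sums and 1 over members on all 3 arrays. For H+G-Exo against H-Exo, those lower (5) numbered 1 by the hybridization spike-in, 0 by the labelling spike-ins or unscaled, 3 with normexp, 9 from listed totals, own sums or the deposited table, and 11 at 1.5-fold. For H+G-Exo against N-Exo, those higher (1) numbered 0 by the hybridization spike-in and 2 from listed totals, own sums or the deposited table, and those lower (6) numbered 3 by the labelling spike-ins, 2 with normexp and 10 from listed totals. miR-669f-3p turned to 0.11 for H+G-Exo against H-Exo from the listed totals, where its total on H+G-Exo included that of miR-669d-3p. The listed totals, own sums and deposited table measured 25 members for H-Exo against N-Exo and 22 in the other comparisons, in place of 20 and 16. For the other changes the cause was not tested. Over all miRNAs, the split of higher and lower calls for H+G-Exo against H-Exo was 35 and 151, and 185 and 7 unscaled. For H-Exo against N-Exo it was 25 and 62, and 1 and 135 unscaled. Of the named members' values under alternatives, 201 kept their side of the rule, 39 lost the call, 10 gained one and 1 called value turned. Among the 201, 19 values changed sign without being called. They included miR-669d-3p, miR-467c-3p and miR-669i for H-Exo against N-Exo (-0.27, -0.45 and -0.53 unscaled). For H+G-Exo against H-Exo they included miR-466i-5p and miR-669n (0.88 and 0.52 unscaled). Detection counts stayed within 1.5 times under 3 other rules.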
